A study of Mus musculus with 18 samples.

Results

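The levels of 10 genes of antigen presentation were read in 18 mouse mammary tumors. Of the 10 genes, 5 belong to MHC class I presentation (H2-K1, H2-D1, B2m, Tap1 and Nlrc5) and 5 to MHC class II presentation (Cd74, H2-Aa, H2-Ab1, H2-Eb1 and Ciita). They were picked by name, as the classical parts of the 2 presentation pathways, from the 57126 genes of the count table. All 10 were in the table and passed the filter on low counts in every comparison. Across the tumors the 10 genes together took between 0.194% and 1.05% of all counts, with a median of 0.513%.

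MHC class I molecules show peptides from inside the cell to CD8 T cells and are made by nearly every nucleated cell. Each consists of a heavy chain, such as those encoded by H2-K1 and H2-D1, and the light chain beta-2 microglobulin, encoded by B2m. Peptides reach the endoplasmic reticulum through a transporter of which Tap1 encodes a subunit, and Nlrc5 encodes the transcriptional coactivator of these genes. MHC class II molecules show peptides taken up from outside to CD4 T cells and are typical of dendritic cells, macrophages and B cells, although some epithelial cells also make them. H2-Aa and H2-Ab1 encode the alpha and beta chains of the I-A molecule, H2-Eb1 the beta chain of I-E, and Cd74 the invariant chain that holds the binding groove until it is loaded. Ciita encodes the class II coactivator. Interferon gamma raises both classes in many cell types, with Irf1 among the factors involved.

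The tumors came from female F1 hybrids of BALB/c and C57BL6/J mice in which adenovirus with Cre recombinase (Ad-Cre) had been injected into the mammary duct. All 3 groups lack 1 Trp53 allele in the recombined epithelium. There the other allele becomes the missense mutant R172H (MaP R172H/-, 7 tumors), the missense mutant R245W (MaP R245W/-, 5 tumors) or is lost (MaP -/-, 6 tumors of 4 mice). Mice JM663 and JM833 gave 2 tumors each. YZ2, YZ6 and YZ10 of the MaP R172H/- group and JM1233, JM1564 and RM0014 of the MaP R245W/- group also carried the reporter Rosa26 LSL-TdTomato/+. Stroma and immune cells keep wild-type Trp53, and the libraries hold all of these cells. The totals were 23113578 to 27930163 counts in MaP R172H/- tumors, 30030630 to 37365062 in MaP R245W/- tumors and 24736337 to 32085794 in MaP -/- tumors. Paired reads of 76 nt came from a HiSeq 4000 for the MaP R172H/- group, and paired reads of 100 nt from a NovaSeq 6000 for the other groups. The authors classed all 7 MaP R172H/- tumors as nonmetaplastic adenocarcinomas, luminal B or HER2-enriched, and all tumors of the other groups as triple-negative. Platform, molecular subtype and the R172H genotype therefore cannot be told apart.

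A few libraries stood apart in cell markers. Epcam, which encodes an epithelial adhesion protein, was at 23.6 CPM (counts scaled to a common library size) in YZ7, 34.3 CPM in JM1233 and 10.3 CPM in JM779-T1, against 252 to 1220 CPM in the other 15 tumors. The summed level of 8 B cell markers was 541 CPM in JM833-T2 and at most 43.1 CPM elsewhere. Summed adipocyte markers were at 2696 CPM in JM833-T1 and at most 256.5 CPM elsewhere, and summed skeletal muscle markers at 882 CPM in JM1233, 162 CPM in JM1133 and at most 43.7 CPM elsewhere. JM1126 had the highest summed pan-leukocyte (2201 CPM), dendritic cell (233 CPM) and fibroblast markers (28990 CPM) of the series. The MHC gene H2-Ea was at or near 0 in 5 tumors of 4 mice, which goes against the F1 background given for all mice, since the BALB/c allele of H2-Ea is transcribed. Library sizes for CPM were scaled by the trimmed mean of M values (TMM).

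On GRCm39 the class I genes lie at chr17:34214987-34219321 (H2-K1, minus strand), chr17:35481691-35486475 (H2-D1, plus strand), chr17:34405996-34416199 (Tap1, plus strand), chr2:121977957-121983594 (B2m, plus strand) and chr8:95160984-95253900 (Nlrc5, plus strand). The I-A and I-E genes share the MHC region with them, at chr17:34493404-34506798 (H2-Aa, minus strand), chr17:34476663-34488393 (H2-Ab1, plus strand) and chr17:34504236-34535648 (H2-Eb1, plus strand). Ciita lies at chr16:10297923-10347694 on the plus strand. The annotated spans of H2-Aa and H2-Eb1 share 2563 bases on opposite strands, and those of Tap1 and Psmb9 share 743. The libraries mark strand, but whether counting used it is not given in the sources used here.

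The upstream sequences of 5 members are shown because they carry short motifs known from the promoters of these 2 classes. Of the 10 members, 6 were read from the RefSeq promoter table, and the 200 bases before the start are given for H2-K1, H2-D1, B2m, H2-Aa and H2-Eb1 (GRCm38.p6). Capitals mark matches, on either strand, to the X box core (TNGCAAC), the Y box (GATTGG), an interferon response core (AANNGAAA) and a kappa B core (GGGNTTCC). No matches overlapped each other in these stretches.
H2-K1, chr17:34000334-34000533, minus strand: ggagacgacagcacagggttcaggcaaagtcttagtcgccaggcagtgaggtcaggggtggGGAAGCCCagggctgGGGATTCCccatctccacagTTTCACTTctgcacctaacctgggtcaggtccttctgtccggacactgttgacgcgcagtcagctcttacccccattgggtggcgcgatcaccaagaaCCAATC
H2-D1, chr17:35262894-35263093, plus strand: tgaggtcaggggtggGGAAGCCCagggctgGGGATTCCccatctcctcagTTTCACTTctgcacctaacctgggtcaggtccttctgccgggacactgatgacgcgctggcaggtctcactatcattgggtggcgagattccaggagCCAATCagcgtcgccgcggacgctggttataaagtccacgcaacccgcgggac
B2m, chr2:122147487-122147686, plus strand: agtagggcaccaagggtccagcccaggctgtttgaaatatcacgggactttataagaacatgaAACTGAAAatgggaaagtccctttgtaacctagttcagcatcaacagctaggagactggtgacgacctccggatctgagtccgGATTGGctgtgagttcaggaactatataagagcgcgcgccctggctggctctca
H2-Aa, chr17:34287824-34288023, minus strand: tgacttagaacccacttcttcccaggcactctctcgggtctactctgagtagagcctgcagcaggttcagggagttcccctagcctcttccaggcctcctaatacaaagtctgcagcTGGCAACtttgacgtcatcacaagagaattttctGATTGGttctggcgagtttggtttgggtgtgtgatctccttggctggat
H2-Eb1, chr17:34305667-34305866, plus strand: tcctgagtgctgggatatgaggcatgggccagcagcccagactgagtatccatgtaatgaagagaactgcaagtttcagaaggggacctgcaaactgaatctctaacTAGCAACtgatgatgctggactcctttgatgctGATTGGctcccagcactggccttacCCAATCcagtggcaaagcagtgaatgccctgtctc
H2-K1 and H2-D1 each held the kappa B core once on either strand and, downstream of both, the same interferon response letters on the opposite strand. B2m held the interferon response core and a Y box. H2-Aa and H2-Eb1 each held an X box core followed by a Y box, and H2-Eb1 a second Y box on the opposite strand. Among the 250 bases before the starts of 27025 RefSeq genes, the kappa B core occurred in 4.74%, the X box core in 8.74%, the Y box in 14.9% and the interferon response core in 21.7%. In the same 250 bases, Tap1 held 1 Y box match, H2-D1 an X box core and H2-Aa an interferon response core, each more than 200 bases before the start. Nlrc5, Cd74, H2-Ab1 and Ciita are named only. A match describes letters and not a bound site.

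Per kilobase of exon, B2m was the most abundant of the 10 and Ciita the least. The length of a gene was the union of all its annotated exons. The mean over 18 tumors was 863 ± 562 CPM per kb (SD) for B2m, 340 ± 156 for H2-D1, 295 ± 174 for H2-K1 and 213 ± 114 for Cd74. It was 91.8 ± 59.3 CPM per kb for H2-Ab1, 68.7 ± 42.3 for H2-Eb1, 56.9 ± 39.2 for H2-Aa, 18.2 ± 9.09 for Tap1, 17.4 ± 8.58 for Nlrc5 and 3.0 ± 2.32 for Ciita. B2m was above H2-D1 in 18 of 18 tumors, and Cd74 above H2-Ab1 in 18 of 18. H2-K1 was above Cd74 in 11 of 18 tumors and Tap1 above Nlrc5 in 10, so these neighbours in the order did not differ beyond their spread. H2-D1 was above H2-K1 in 14 tumors, H2-Ab1 above H2-Eb1 in 14, H2-Eb1 above H2-Aa in 17, H2-Aa above Tap1 in 15 and Nlrc5 above Ciita in 17. The order of the I-A and I-E genes rests on the lengths used, 4292 bases for H2-Aa, 2568 for H2-Ab1 and 2596 for H2-Eb1. Without division by length their mean CPM was 244, 236 and 178. In each tumor H2-Aa had at least 1.09 times the counts of H2-Eb1. From the lowest to the highest tumor the CPM differed 4.99-fold for H2-D1 and 18.9-fold for Ciita, the ends of the 10. The spans of the 2 classes overlapped, with 14.9-fold for Nlrc5 and 11.6-fold for B2m of class I and 10.8-fold for Cd74 of class II.

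**Figure D1:**
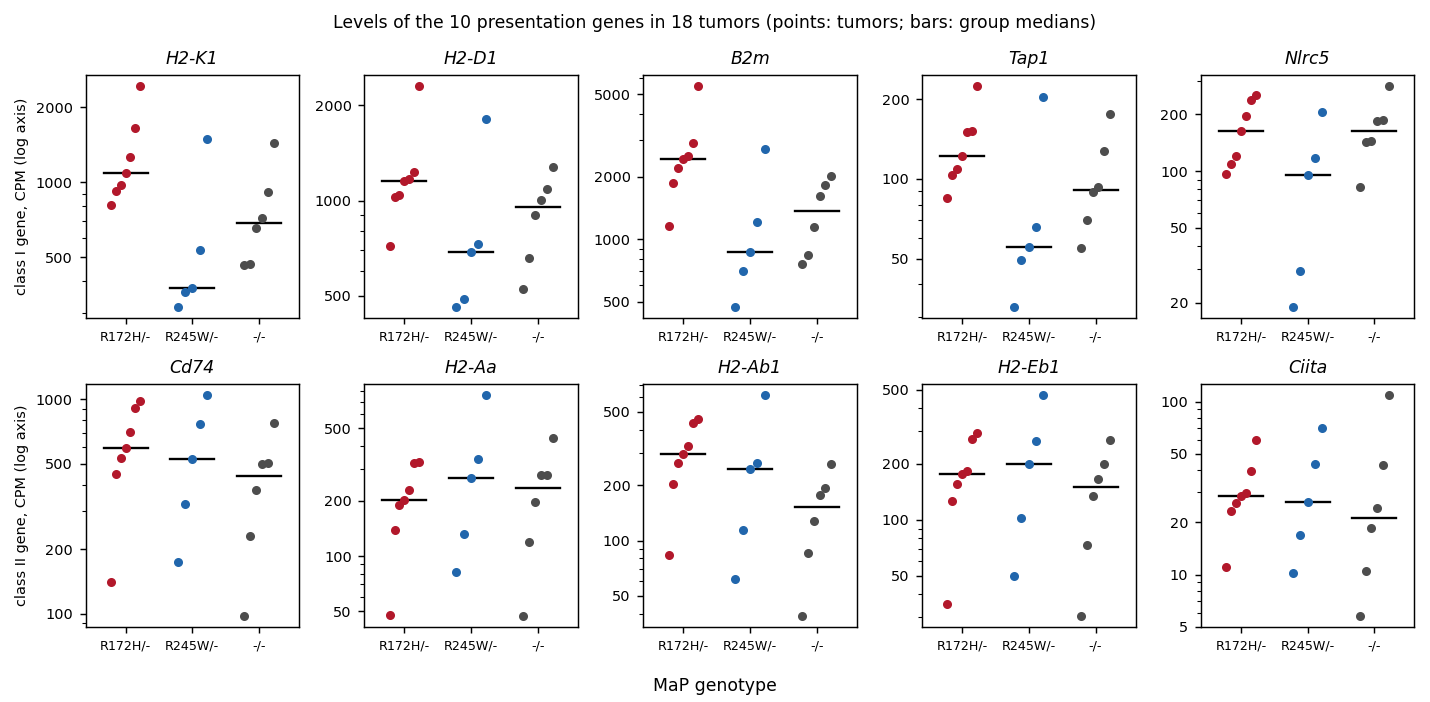
CPM on a log axis of each of the 10 genes in 7 MaP R172H/-, 5 MaP R245W/- and 6 MaP -/- tumors, with 1 point a tumor and a bar at the group median. The groups overlapped for every gene, and in the MaP R245W/- group 1 tumor stood above the others in H2-K1, H2-D1, B2m and Tap1.

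The heavy chain gene H2-K1 was at 809 CPM in the lowest MaP R172H/- tumor, 1094 CPM at the median and 2444 CPM in the highest. In the 5 MaP R245W/- tumors H2-K1 was at 535 (JM1233), 376 (JM1564), 364 (RM0014), 317 (JM1126) and 1492 CPM (JM1133). In MaP -/- tumors H2-K1 was between 467 and 1437 CPM with a median of 687. Of the MaP R245W/- tumors, 4 thus lay below every MaP R172H/- tumor, while JM1133 lay among the highest of all. H2-D1, the other heavy chain gene measured, ran from 721 to 2308 CPM in MaP R172H/- tumors with a median of 1151. H2-D1 was at 688, 489, 729, 463 and 1814 CPM in JM1233, JM1564, RM0014, JM1126 and JM1133, and between 524 and 1281 CPM in MaP -/- tumors with a median of 955. The same tumors were highest for both genes: YZ11 in the MaP R172H/- group, JM1133 in the MaP R245W/- group and JM663-T1 in the MaP -/- group. H2-K1 and H2-D1 are near relatives of each other and of other class I heavy chain genes, so the split of reads among them is uncertain.

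B2m, the shared light chain, was at 1156 CPM in the lowest MaP R172H/- tumor, 2421 at the median and 5492 in the highest. B2m was at 864 (JM1233), 704 (JM1564), 1216 (RM0014), 475 (JM1126) and 2705 CPM (JM1133) in MaP R245W/- tumors. In MaP -/- tumors B2m was between 761 and 2024 CPM with a median of 1374. YZ7 held the lowest value of the MaP R172H/- group for B2m, as for H2-K1 and H2-D1. The transporter gene Tap1 ran from 85.0 to 225 CPM in MaP R172H/- tumors (median 123) and from 55.0 to 175 CPM in MaP -/- tumors (median 91.2). Tap1 was at 49.3, 55.2, 65.6, 32.98 and 204 CPM in JM1233, JM1564, RM0014, JM1126 and JM1133. The coactivator gene Nlrc5 had equal medians of 164 CPM in MaP R172H/- tumors (96.1 to 254) and in MaP -/- tumors (82.7 to 284). Nlrc5 was at 117 (JM1233), 29.3 (JM1564), 95.2 (RM0014), 19.1 (JM1126) and 206 CPM (JM1133). JM1564 and JM1126 were below every other tumor of the series for Nlrc5.

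The invariant chain gene Cd74 was between 140 and 986 CPM in MaP R172H/- tumors with a median of 591, and between 97.5 and 774 CPM in MaP -/- tumors with a median of 440. Cd74 was at 767 (JM1233), 175 (JM1564), 325 (RM0014), 1049 (JM1126) and 526.1 CPM (JM1133). JM1126, the lowest tumor for all class I genes, was the highest of the series for Cd74. H2-Aa ran from 47.7 to 326 CPM in MaP R172H/- tumors (median 201) and from 47.0 to 441 CPM in MaP -/- tumors (median 236). H2-Aa was at 340, 81.4, 131, 760 and 267 CPM in JM1233, JM1564, RM0014, JM1126 and JM1133. H2-Ab1 ran from 83.6 to 455 CPM in MaP R172H/- tumors (median 296) and from 39.0 to 260.5 CPM in MaP -/- tumors (median 152). The alpha and beta chain genes of I-A thus had their higher median in different groups. H2-Ab1 was at 263, 62.2, 114, 617 and 244 CPM in the MaP R245W/- tumors, in the order above. H2-Eb1 was between 35.3 and 293 CPM in MaP R172H/- tumors (median 178) and between 30.5 and 268 CPM in MaP -/- tumors (median 151). H2-Eb1 was at 266, 50.1, 103, 470 and 200 CPM in JM1233, JM1564, RM0014, JM1126 and JM1133. YZ7, JM1564 and JM779-T1 were the lowest tumor of their groups for Cd74, H2-Aa, H2-Ab1 and H2-Eb1.

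Ciita, the class II coactivator gene, was between 10.99 and 60.2 CPM in MaP R172H/- tumors (median 28.6) and between 5.77 and 109 CPM in MaP -/- tumors (median 21.3). Ciita was at 43.4, 10.2, 26.4, 70.1 and 16.9 CPM in JM1233, JM1564, RM0014, JM1126 and JM1133. The highest Ciita level was that of JM833-T2, the tumor with the highest B cell markers, and the part of B cells in that level was not tested.

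The first comparison asks how tumors with p53 R172H differ from tumors without p53. Against MaP -/- tumors, MaP R172H/- tumors had higher fitted values of B2m, H2-Ab1 and H2-K1, but none of the 10 genes passed a Benjamini-Hochberg false discovery rate (FDR) of 0.05 in edgeR's quasi-likelihood test. Of all 20954 genes tested, 8.4% passed, 3.67% higher and 4.73% lower. The count of members was also 0 of 10 with the DESeq2 Wald test, which called 1447 genes higher and 1978 lower. At an unadjusted p below 0.05 there were 3 of 10 members, against 24.7% of all genes. The log2 fold change was 0.93 ± 0.34 (SE, FDR = 0.111) for B2m, 0.73 ± 0.32 (FDR = 0.172) for H2-K1 and 0.98 ± 0.43 (FDR = 0.172) for H2-Ab1. It was 0.42 ± 0.27 for H2-D1 (FDR = 0.356), 0.39 ± 0.27 for Tap1 (FDR = 0.396), -0.05 ± 0.29 for Nlrc5 (FDR = 0.941) and 0.55 ± 0.46 for Cd74 (FDR = 0.486). It was -0.14 ± 0.47 for H2-Aa (FDR = 0.885), 0.27 ± 0.48 for H2-Eb1 (FDR = 0.776) and -0.20 ± 0.58 for Ciita (FDR = 0.865). The median over the 10 members was 0.40, over the 5 class I members 0.42 and over the 5 class II members 0.27, beside 0.0027 over all genes tested. The groups overlapped for all 10 members. Groups did not overlap for 4.62% of all genes, and the log2 fold change was above 0 for 7 of 10 members and 50.2% of all genes.

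Leukocyte genes moved with this comparison. Ptprc, which encodes the pan-leukocyte protein CD45, was between 63.8 and 164 CPM in MaP R172H/- tumors and between 187 and 567 CPM in MaP -/- tumors, so that the groups did not overlap (log2 fold change -1.24 ± 0.29, FDR = 0.0176). Of 10 pan-leukocyte markers, 10 had a fold change below 0 and Ptprc and Cd53, a leukocyte tetraspanin, were called lower. The summed level of these markers was 377 to 973 CPM in MaP R172H/- tumors and 892 to 1974 CPM in MaP -/- tumors. Their part in the members' values was not tested beyond a fit with the mean leukocyte marker level as a covariate. In that fit Ciita was 1.06 and H2-Aa 0.58 higher on the log2 scale in MaP R172H/- tumors (FDR = 0.428 and 0.658), and 0 of 10 members passed. In bulk tumors, fewer cells of a type and less RNA per cell cannot be told apart.

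**Figure D2:**
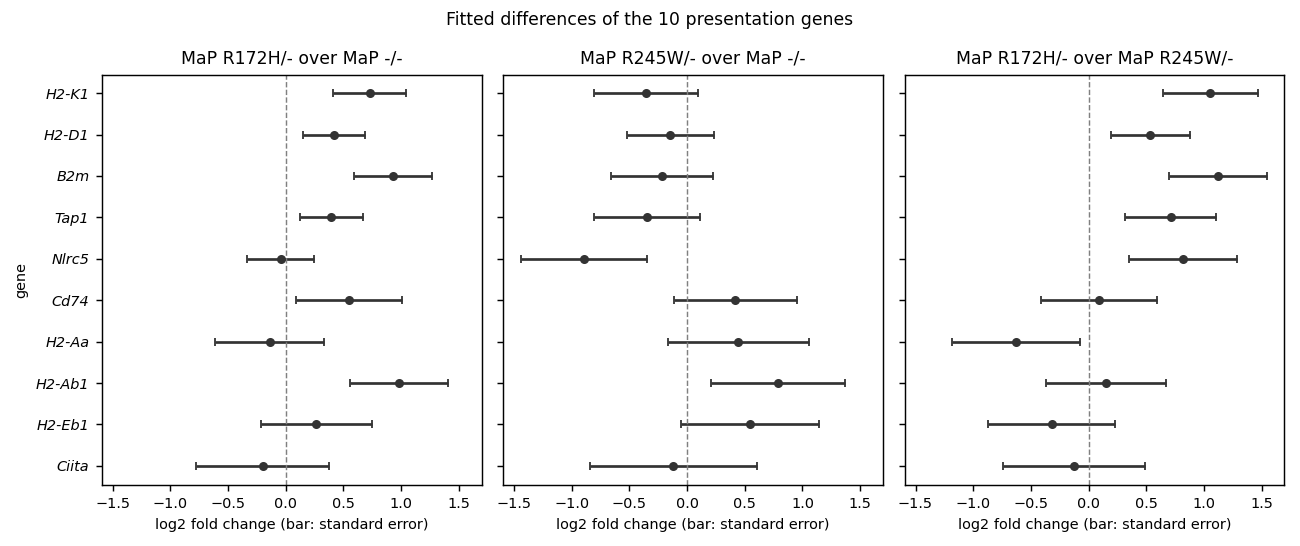
Fitted log2 fold change of each of the 10 genes in 3 comparisons, with the standard error as a bar and a dashed line at 0. No gene passed an FDR of 0.05 in any panel. In the comparison of the mutants all 5 class I genes lay above 0.

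The next comparison asks the same of p53 R245W. Against MaP -/- tumors, all 5 class I members had fitted values below 0 and 4 of 5 class II members above 0 in MaP R245W/- tumors, and 0 of 10 passed an FDR of 0.05 in edgeR, where 0.0% of 21452 genes passed. With the DESeq2 Wald test, members passing also numbered 0, while 170 genes were called higher and 257 lower. At an unadjusted p below 0.05 in edgeR there were 0 of 10 members, beside 11.8% of all genes. Most of the signs of the members changed in a fit without the tumors at or near 0 in H2-Ea, which include JM1126. There H2-K1, H2-D1, B2m and Tap1 had 0.21, 0.22, 0.28 and 0.23, and Cd74, H2-Aa and H2-Eb1 had -0.00301, -0.27 and -0.074, all with FDRs above 0.05. Nlrc5, H2-Ab1 and Ciita kept their signs. Without JM1126 alone H2-Aa had -0.17 and the other signs held. With all tumors Nlrc5 had the largest value, -0.90 ± 0.55 (SE, FDR = 0.527). The log2 fold change was -0.36 ± 0.45 for H2-K1 (FDR = 0.770), -0.15 ± 0.38 for H2-D1 (FDR = 0.895), -0.22 ± 0.44 for B2m (FDR = 0.861) and -0.35 ± 0.46 for Tap1 (FDR = 0.778). It was 0.79 ± 0.58 for H2-Ab1 (FDR = 0.602), 0.54 ± 0.60 for H2-Eb1 (FDR = 0.739), 0.45 ± 0.61 for H2-Aa (FDR = 0.791), 0.42 ± 0.54 for Cd74 (FDR = 0.773) and -0.12 ± 0.72 for Ciita (FDR = 0.960). The median was -0.35 over the class I members and 0.45 over the class II members, beside 0.02 over all genes. Values above 0 made up 51.8% of all genes, and groups did not overlap for 1.33% of all genes but for none of the 10 members. Both groups were read on the same platform.

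The mutants were then compared with each other in a fit of all 18 tumors. All 5 class I members had higher fitted values in MaP R172H/- than in MaP R245W/- tumors, yet 0 of 10 members passed an FDR of 0.05 in edgeR, beside 9.4% of 22481 genes, 2.91% higher and 6.49% lower. The DESeq2 Wald test gave 0 of 10 as well, beside 1502 genes called higher and 2188 lower. At an unadjusted p below 0.05 there were 2 of 10, beside 25.9% of all genes. The log2 fold change was 1.12 ± 0.43 for B2m (SE, FDR = 0.104), 1.06 ± 0.41 for H2-K1 (FDR = 0.114), 0.82 ± 0.47 for Nlrc5 (FDR = 0.281), 0.71 ± 0.40 for Tap1 (FDR = 0.270) and 0.54 ± 0.34 for H2-D1 (FDR = 0.342). Class II values were on both sides of 0, with -0.63 ± 0.55 for H2-Aa (FDR = 0.506), -0.32 ± 0.55 for H2-Eb1 (FDR = 0.759), -0.13 ± 0.61 for Ciita (FDR = 0.922), 0.09 ± 0.50 for Cd74 (FDR = 0.934) and 0.15 ± 0.52 for H2-Ab1 (FDR = 0.886). The median was 0.82 over class I and -0.13 over class II members, beside 0.0028 over all genes. Values above 0 made up 50.2% of all genes, and groups did not overlap for 5.68% of all genes and for none of the 10 members.

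One tumor decided the class I calls between the mutants. Without JM1133, edgeR called 4 members higher in MaP R172H/- tumors, with log2 fold changes of 1.69 for H2-K1 (FDR = 0.00916), 1.39 for Tap1 (FDR = 0.0152), 1.67 for B2m (FDR = 0.0185) and 1.03 for H2-D1 (FDR = 0.0436). Leaving out any other single tumor called 0 of 10. Over all genes, the fits with a single tumor left out, that without JM1133 among them, called 369 to 804 higher. With all tumors 654 were called higher, or 2.91% of 22481. JM1133 was close to the middle of its group in pan-leukocyte markers, at 899 CPM beside a median of 944. Its summed interferon gamma signaling genes were the highest of the group, at 1795 CPM beside a median of 1129. The part of either in its class I levels was not tested. The groups of all 3 comparisons share tumors, so the values are set side by side only.

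Peptide supply genes, which feed class I molecules, were examined as a list of 12. In MaP R172H/- against MaP -/- tumors, 2 of 12 were called higher and 0 lower, with a median log2 fold change of 0.44. These were Tap2, the partner of Tap1 (0.84 ± 0.24 (SE), FDR = 0.0430), and Psme1, a subunit of the proteasome activator (0.77 ± 0.17, FDR = 0.0164). The call of Psme1 held with any single tumor left out, whereas that of Tap2 was lost in 11 of 13 such fits (FDR = 0.0502 to 0.0959) and held only without JM663-T1 or JM833-T1. Tap2 was between 47.9 and 91.4 CPM in MaP R172H/- tumors and between 18.9 and 48.7 CPM in MaP -/- tumors. The immunoproteasome genes Psmb8 and Psmb9 had 0.65 ± 0.22 (FDR = 0.0938) and 0.54 ± 0.29 (FDR = 0.270). In the other comparisons 0 of 12 were called, with medians of 0.23 for MaP R245W/- against MaP -/- tumors and 0.04 between the mutants. The most abundant genes of the list, the chaperone genes Calr and Canx, had 0.38 ± 0.23 and 0.02 ± 0.22 in the former and -0.0042 ± 0.20 and -0.08 ± 0.20 in the latter. Psmb8, Psmb9 and Tap2 had 0.15 ± 0.42, 0.05 ± 0.43 and 0.03 ± 0.40 against MaP -/- tumors in the MaP R245W/- group, and 0.47 ± 0.36, 0.46 ± 0.40 and 0.78 ± 0.34 between the mutants.

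Among 17 other class I heavy chain genes, 15 were tested in each comparison. In MaP R172H/- against MaP -/- tumors 0 were called higher and 1 lower, Cd1d1, whose product presents lipids (-1.44 ± 0.42 (SE), FDR = 0.0491), with a median of 0.23 over the list. Cd1d1 was between 8.15 and 11.6 CPM in MaP R172H/- tumors and between 8.13 and 73.7 CPM in MaP -/- tumors, the highest being JM833-T1. Its call was lost in 11 of 13 fits with a tumor left out and held only without JM836-T1 or JM663-T1, and without JM833-T1 the value was -0.81 (FDR = 0.0965). None was called in the other comparisons, where the median was -0.10 and 0.30. The most abundant of these genes, H2-T23 and H2-Q4, had 0.28 ± 0.55 and -0.43 ± 0.44 for MaP R245W/- against MaP -/- tumors and 0.06 ± 0.48 and 0.93 ± 0.40 between the mutants.

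Other class II chains and loading genes formed a list of 11. Of these, 9 were tested in MaP R172H/- against MaP -/- tumors, 0 were called higher and 2 lower, and the median was -0.32. Called were Marchf1, a ubiquitin ligase that removes class II molecules from the surface (-1.09 ± 0.25 (SE), FDR = 0.0172), and H2-Ob, a chain of the loading modulator H2-O found mainly in B cells (-3.71 ± 1.08, FDR = 0.0490). H2-Ob was between 0.44 and 1.44 CPM in MaP R172H/- tumors and at 65.6 CPM in the highest MaP -/- tumor, JM833-T2, with a MaP -/- median of 1.51. Without JM833-T2 the value of H2-Ob was -0.82 (FDR = 0.347), and its call held only without JM663-T1, JM663-T2 or JM779-T1. Marchf1 was called with any single tumor left out. H2-DMa and H2-DMb1, which encode the peptide exchange factor H2-M, had -0.0042 ± 0.22 and 0.16 ± 0.33. In MaP R245W/- against MaP -/- tumors H2-DMa and H2-DMb1 had 0.99 ± 0.47 (FDR = 0.441) and 0.93 ± 0.49 (FDR = 0.479), and JM1126 held the highest level of both genes, 87.2 and 86.7 CPM. Between the mutants H2-DMa and H2-DMb1 had -1.02 ± 0.38 (FDR = 0.0959) and -0.81 ± 0.43 (FDR = 0.246). No gene of the list was called in these 2 comparisons, where the most abundant, the protease genes Ctss and Lgmn, had 0.20 ± 0.31 and -0.17 ± 0.37 and then -0.55 ± 0.31 and -0.59 ± 0.29.

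None of 7 shared MHC promoter factors was called in any comparison. Rfx5, which encodes an X box binding protein, had 0.48 ± 0.20 (SE, FDR = 0.156) for MaP R172H/- against MaP -/- tumors, -0.09 ± 0.28 for MaP R245W/- against MaP -/- tumors and 0.55 ± 0.25 (FDR = 0.168) between the mutants. The most abundant of the list, Creb1 and Nfya, had 0.28 ± 0.15 and 0.17 ± 0.15, then -0.12 ± 0.18 and -0.10 ± 0.17, then 0.38 ± 0.16 and 0.26 ± 0.15. Of 19 interferon gamma signaling genes 18 were tested and 0 called in each comparison, with medians of -0.07, -0.37 and 0.25. Ifng was not tested, as it had at most 5 counts in any tumor. Irf1 had 0.07 ± 0.23, 0.03 ± 0.32 and 0.02 ± 0.30. Jak1 and Gbp2, the most abundant of the list, had -0.39 ± 0.15 and 0.22 ± 0.60, then -0.12 ± 0.24 and -0.50 ± 0.76, then -0.29 ± 0.19 and 0.69 ± 0.73.

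Across tumors the genes of each class varied together and the 2 classes largely apart. Over 18 tumors Spearman's rho between 2 class I members was 0.69 to 0.96 in 10 pairs (median 0.88), and between 2 class II members 0.74 to 0.97 in 10 pairs (median 0.87). In the 25 pairs of a class I with a class II member it was -0.12 to 0.27 (median 0.06). These values describe 18 libraries of 16 mice that share normalization and, in part, a mouse. JM1126 shows the separation in a single tumor, with the lowest H2-K1, H2-D1, B2m, Tap1 and Nlrc5 of the series and the highest Cd74, H2-Aa, H2-Ab1 and H2-Eb1. Its summed pan-leukocyte, dendritic cell and fibroblast markers were also the highest of the series, and their part in these levels was not tested.

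Regulators were then set against the genes they are known for, in 8 relations on log2(CPM + 0.5) with permutation tests of 100000 resamples, two-sided. Of these, 6 are reported. H2-K1 rose with Nlrc5, with r = 0.75 (permutation p = 0.0001, adjusted p = 0.0002, n = 18) and rho = 0.78 (permutation p = 0.0003, adjusted p = 0.0008). B2m rose with Nlrc5, with r = 0.74 (permutation p = 0.0002, adjusted p = 0.00032) and rho = 0.69 (permutation p = 0.00189, adjusted p = 0.00302). Cd74 rose with Ciita, with r = 0.88 (permutation p = 1e-05, adjusted p = 4e-05) and rho = 0.83 (permutation p = 6e-05, adjusted p = 0.00024), where 1e-05 is the smallest p these resamples can give. H2-Ab1 rose with Ciita, with r = 0.82 (permutation p = 4e-05, adjusted p = 0.000107) and rho = 0.74 (permutation p = 0.0008, adjusted p = 0.0016). These rho values lay below the median of all pairs of their class, 0.88 in class I and 0.87 in class II. Nlrc5 with B2m was the lowest class I pair and Ciita with H2-Ab1 the lowest class II pair. The relations thus do not set a regulator apart from the other members of its class.

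Each of these 4 relations held within both platforms and without the 2 tumors farthest from the median of the regulator. In the 7 HiSeq 4000 and the 11 NovaSeq 6000 tumors r was 0.81 and 0.77 for Nlrc5 with H2-K1, and 0.80 and 0.76 for Nlrc5 with B2m. It was 0.92 and 0.90 for Ciita with Cd74 and 0.90 and 0.85 for Ciita with H2-Ab1. Without the 2 tumors r was 0.69 for Nlrc5 with H2-K1, 0.57 for Nlrc5 with B2m, 0.89 for Ciita with Cd74 and 0.84 for Ciita with H2-Ab1.

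The class II gene Cd74 was also set against the leukocyte gene Ptprc. Ptprc with Cd74 gave r = 0.33 (permutation p = 0.180, adjusted p = 0.206, n = 18) and rho = 0.30 (permutation p = 0.222, adjusted p = 0.254), and r = 0.09 without JM833-T2 and YZ7. In the 7 HiSeq 4000 tumors, all MaP R172H/-, r was 0.87 (exact permutation p = 0.0236), and in the 11 NovaSeq 6000 tumors 0.45 (permutation p = 0.168). The difference between platforms was not tested. JM779-T1 had the lowest Cd74 of the series, 97.5 CPM, with Ptprc at 255 CPM. Ptprc with H2-K1 gave r = -0.39 (permutation p = 0.1103, adjusted p = 0.147) and rho = -0.44 (permutation p = 0.0698, adjusted p = 0.0930), and r = -0.37 without the same 2 tumors. Within platforms it was 0.31 (exact permutation p = 0.491) and -0.21 (permutation p = 0.532).

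**Figure D3:**
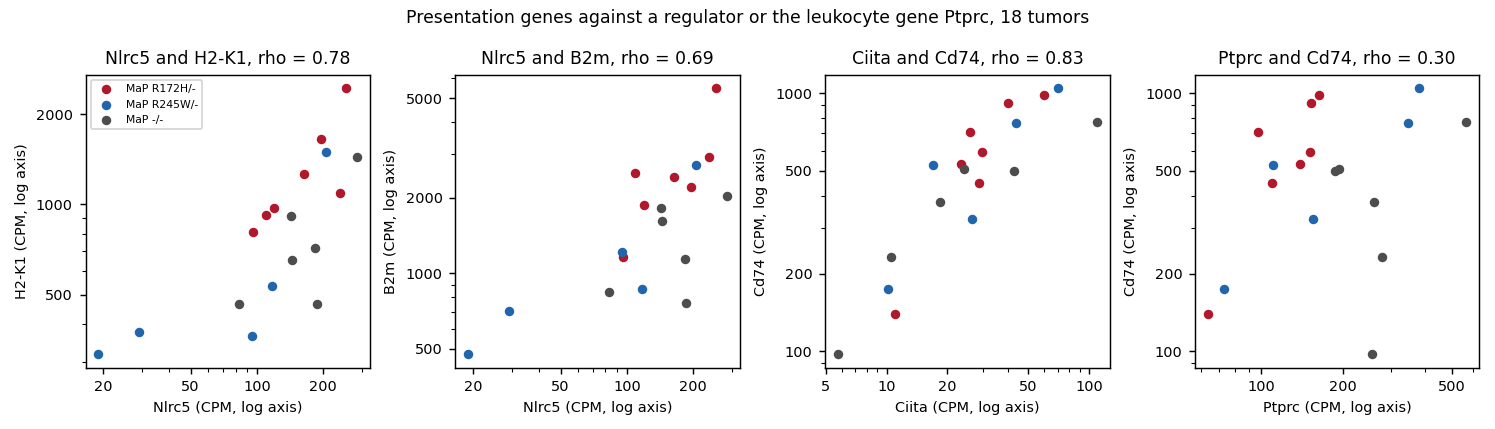
CPM on log axes of a presentation gene (vertical) against a regulator or Ptprc (horizontal), with 1 point a tumor coloured by group. H2-K1 and B2m lie along a line with Nlrc5 (rho = 0.78 and 0.69) and Cd74 with Ciita (rho = 0.83), whereas Cd74 scatters against Ptprc (rho = 0.30).

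The genes most like H2-K1 over the 18 tumors, among 15197 tested protein-coding genes, were Rigi (rho = 0.93), H2-T22 (0.92), Tor3a (0.92), Trafd1 (0.90), H2-Q6 (0.89), Nmi (0.88), Trim56 (0.88), Irgm2 (0.88), Stat2 (0.88) and H2-Q7 (0.88). H2-T22, H2-Q6 and H2-Q7 are themselves class I heavy chain genes. Those most like H2-Ab1 were Grap2 (0.89), H2-DMb1 (0.86), Adgrg5 (0.86), Ptprv (0.83), Pitpnm3 (0.81), Pip5k1c (0.80), Fam167a (0.80), Crmp1 (0.80), Arap1 (0.80) and Eif4e3 (0.79). Of these 10, H2-DMb1 belongs to class II loading. Each list is the top of a ranking, with no test.

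Within a class, the ratio of 2 members in the same tumor does not depend on library scaling. Ratios of raw counts were compared between groups for all 20 pairs within a class in the 3 comparisons, 60 exact permutation tests in all, a choice made after the levels were seen. With each tumor as a unit, 15 of the 60 had a Benjamini-Hochberg adjusted p below 0.05, all of them in comparisons with MaP R172H/- tumors. Between MaP R245W/- and MaP -/- tumors, read on 1 platform, 0 of 20 passed.

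H2-Ab1 was raised relative to H2-Aa and H2-Eb1 in MaP R172H/- tumors. The ratio of H2-Aa to H2-Ab1 was 0.571 in the lowest MaP R172H/- tumor, 0.711 at the median and 0.780 in the highest. In MaP R245W/- tumors the ratio of H2-Aa to H2-Ab1 was 1.29 (JM1233), 1.31 (JM1564), 1.15 (RM0014), 1.23 (JM1126) and 1.10 (JM1133). In MaP -/- tumors it was between 1.21 and 1.69 with a median of 1.49. MaP R172H/- tumors did not overlap with either other group. The log2 difference was -1.09 against MaP -/- tumors (exact permutation p = 0.000583, adjusted p = 0.00842) and -0.82 against MaP R245W/- tumors (exact permutation p = 0.00126, adjusted p = 0.00842), each the smallest p its design allows. Between MaP R245W/- and MaP -/- tumors the log2 difference was -0.27 (exact permutation p = 0.0216, adjusted p = 0.0633). Genotype, molecular subtype and platform with its read length cannot be told apart here.

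Other ratios in both classes also differed. H2-Ab1 over H2-Eb1 was between 1.55 and 2.37 in MaP R172H/- tumors, between 0.989 and 1.31 in MaP R245W/- tumors and between 0.878 and 1.28 in MaP -/- tumors. Its log2 difference was 0.71 against MaP -/- and 0.57 against MaP R245W/- tumors (exact permutation, adjusted p = 0.00842 in both). Cd74 over H2-Aa was between 2.56 and 3.50 in MaP R172H/- tumors, between 1.38 and 2.48 in MaP R245W/- tumors and between 1.76 and 2.07 in MaP -/- tumors. Its log2 difference was 0.65 and 0.56 (exact permutation, adjusted p = 0.00842 in both). H2-Aa over H2-Eb1 differed by -0.38 and -0.25 (exact permutation, adjusted p = 0.00842 and 0.0404). Cd74 over H2-Ab1 differed by -0.44 against MaP -/- tumors (exact permutation, adjusted p = 0.00842) but by -0.26 against MaP R245W/- tumors, with overlap (adjusted p = 0.205, exact permutation). Ratios to Ciita did not pass, with 0.75 and 0.37 for H2-Ab1 (exact permutation, adjusted p = 0.0633 and 0.370) and -0.34 and -0.45 for H2-Aa (exact permutation, adjusted p = 0.370 and 0.298). In class I, H2-K1 over H2-D1 was between 0.895 and 1.34 in MaP R172H/- tumors and between 0.499 and 0.822 in MaP R245W/- tumors (log2 difference 0.58, exact permutation, adjusted p = 0.00842). MaP -/- tumors, at 0.709 to 1.12, overlapped both. H2-D1 over B2m differed by -0.49 against MaP -/- and -0.60 against MaP R245W/- tumors (exact permutation, adjusted p = 0.0275 and 0.0233). H2-K1 over Nlrc5, B2m over Nlrc5 and Cd74 over H2-Eb1 differed by 0.78, 0.93 and 0.275 against MaP -/- tumors (exact permutation, adjusted p = 0.0233 in each). These last ratios did not pass against MaP R245W/- tumors. With the 2 tumors of a mouse averaged, all 15 differences kept their sign, and the smallest p the design of MaP R172H/- against 4 MaP -/- mice gave was 0.00303. By mouse, the exact permutation p was 0.0273 for H2-D1 over B2m, 0.0121 for Cd74 over H2-Eb1 and 0.00909 for H2-K1 over Nlrc5 in that comparison. The p values by mouse were not adjusted, so how many of the 15 would pass by mouse is not known.

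**Figure D4:**
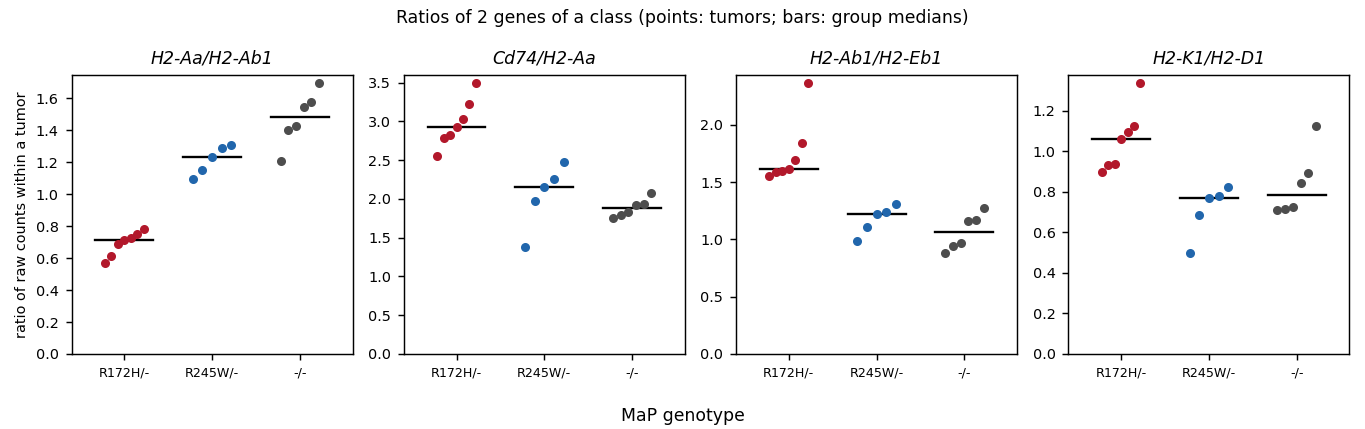
Ratio of raw counts of 2 genes of a class within each tumor, with 1 point a tumor, a bar at the group median and axes from 0. For H2-Aa over H2-Ab1 the MaP R172H/- tumors lie between 0.571 and 0.780, below all others.

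H2-Ea, which encodes the alpha chain that pairs with the product of H2-Eb1, divided the tumors regardless of group. Strains with a deletion in the promoter of H2-Ea, C57BL/6 among them, do not transcribe it, whereas BALB/c mice do. H2-Ea was below 1 CPM in YZ3, YZ6, JM1126, JM663-T1 and JM663-T2, 5 tumors of 4 mice, at 0.0361 to 0.911 CPM, or 1 to 28 counts. In the other 13 tumors H2-Ea was between 15.2 and 151 CPM. Both tumors of JM663 were low and both of JM833 high. The low tumors were 2 of 7, 1 of 5 and 2 of 6 in the MaP R172H/-, MaP R245W/- and MaP -/- groups. Its log2 fold change was -0.30 ± 1.29 (SE), 0.23 ± 1.39 and -0.57 ± 1.34 in the 3 comparisons.

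The class I genes H2-Q1, H2-T15 and H2-T5, named after their values were seen, were at or near 0 in the same 5 tumors. H2-Q1 was at most 0.119 CPM there and at least 4.17 CPM in the other 13, H2-T15 at most 0.0957 and at least 5.21 CPM, and H2-T5 at most 0.159 and at least 0.747 CPM. Members were present in these tumors: H2-Eb1 was at 470 CPM in JM1126 and H2-K1 at 1647 CPM in YZ6 and 1437 CPM in JM663-T1. An F1 of BALB/c and C57BL6/J carries a BALB/c allele, so the H2-Ea values of these 4 mice go against the stated background. Which MHC alleles each mouse carried was not tested. Without the 5 tumors, 0 of 10 members passed an FDR of 0.05 in any comparison, and the log2 fold changes of H2-K1 and B2m between MaP R245W/- and MaP -/- tumors were 0.21 and 0.28 in place of -0.36 and -0.22.

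**Figure D5:**
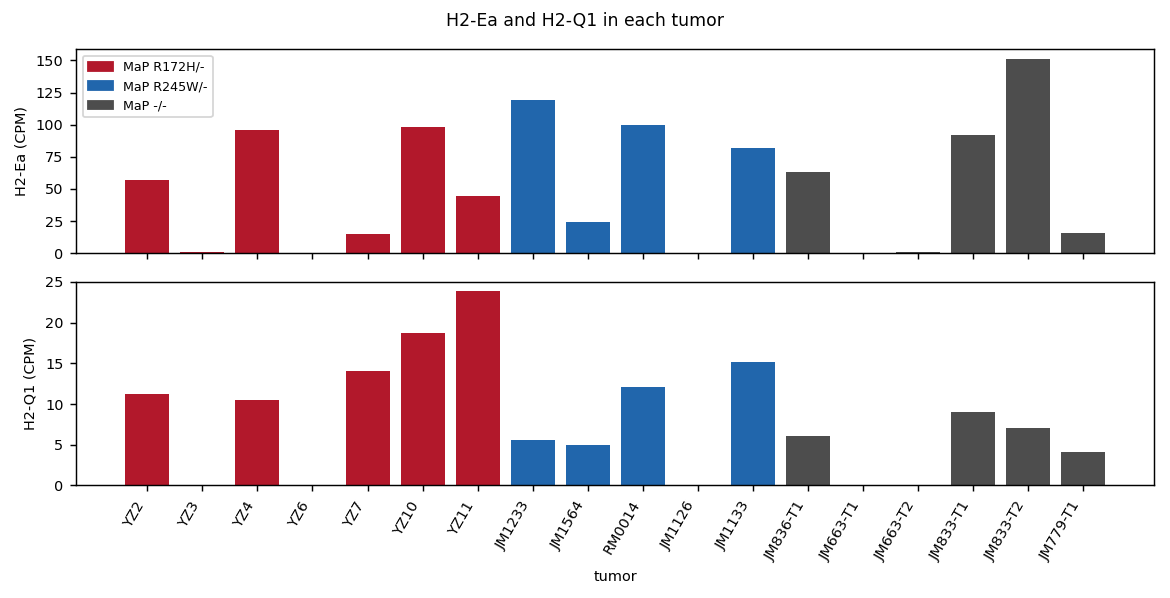
CPM of H2-Ea (upper) and H2-Q1 (lower) as bars from 0 for each of 18 tumors, coloured by group. The same 5 tumors, YZ3, YZ6, JM1126, JM663-T1 and JM663-T2, have no visible bar in both panels or nearly none.

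Markers of cells that could carry class II molecules were counted in the same fits. Of 8 macrophage markers, 0 were called higher and 2 lower in MaP R172H/- against MaP -/- tumors. Called lower were Adgre1 (-1.04 ± 0.20 (SE), FDR = 0.00688) and Mrc1 (-2.03 ± 0.50, FDR = 0.0236), beside 4.73% of all genes. The fold change was above 0 for 3 of the 8. C1qa, C1qb and C1qc averaged 338, 208 and 159 CPM in MaP R172H/- and 292, 186 and 151 CPM in MaP -/- tumors. Between the mutants Adgre1 was called lower (-1.31 ± 0.36, FDR = 0.0302), beside 6.49% of all genes. The call of Mrc1 was lost without JM663-T2 (FDR = 0.0526), and that of Adgre1 between the mutants without JM1233 (-0.60, FDR = 0.138), YZ2, YZ4 or YZ10. The summed macrophage level was 1017 to 1244 CPM in MaP R172H/-, 671 to 4490 CPM in MaP R245W/- and 863 to 2533 CPM in MaP -/- tumors. JM1233, with the 4490 CPM, had the second highest Cd74 of its group. Of 8 dendritic cell markers 0 were called in each comparison, and their sum was highest in JM1126, at 233 CPM, and lowest in YZ7, at 29.0 CPM. These were the tumors with the highest and the second lowest Cd74. The sum in JM1126 was mostly Itgax, at 200 CPM, and no other marker of the list was highest in that tumor. Flt3, Xcr1, Clec9a and Ccr7 were highest in JM833-T2. The 2 most abundant dendritic cell markers, Itgax and Zbtb46, had 0.38 ± 0.43 and -0.29 ± 0.33, then 0.65 ± 0.45 and -0.60 ± 0.41, then -0.30 ± 0.47 and 0.28 ± 0.37. Of 8 B cell markers 0 were called in each comparison. The most abundant B cell markers, Cr2 and Ms4a1, had -4.23 ± 1.37 and -4.55 ± 1.34 for MaP R172H/- against MaP -/- tumors. These values rested on JM833-T2, where Cr2 was at 189.7 CPM and Ms4a1 at 91.9 CPM, against at most 5.86 and 4.33 CPM in the other 5 MaP -/- tumors. Without JM833-T2 they were -0.25 and -1.25 (FDR = 0.862 and 0.363), while Ms4a1 passed without YZ11, JM836-T1, JM663-T1 or JM779-T1 (FDR = 0.0310 to 0.0484). The part of these cells in the class II values was not tested.

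Of 9 T and NK cell markers tested in MaP R172H/- against MaP -/- tumors, 0 rose and 1 fell, Ncr1 (-2.85 ± 0.72 (SE), FDR = 0.0270), and in the other comparisons 0 of 10 were called. The call of Ncr1 was lost without YZ3, JM663-T2 or JM833-T2 (FDR = 0.0505 to 0.0631), and without YZ11 it was not tested. Cd4 and Cd8a, the most abundant of them, averaged 4.97 and 4.41 CPM over the tumors. Of 10 epithelial markers 0 were called in each comparison, with medians of 1.33, 0.84 and 0.62. Epcam had 1.12 ± 0.76, 0.66 ± 0.82 and 0.42 ± 0.81, and the most abundant, Krt18 and Krt8, had 1.38 ± 0.69 and 1.28 ± 0.79 in the first comparison. The 3 tumors low in Epcam, YZ7, JM1233 and JM779-T1, did not share a class I level, with H2-K1 at 809, 535 and 656 CPM. Without them 0 of 10 members passed in any comparison. Other markers called in MaP R172H/- tumors were lower: the fibroblast genes Pdgfra (-2.49 ± 0.63, FDR = 0.0265) and Lum (-1.98 ± 0.49, FDR = 0.0253) and the endothelial gene Pecam1 (-0.77 ± 0.17, FDR = 0.0135) against MaP -/- tumors. The fold change was above 0 for 2 of 6 fibroblast markers there. Col1a1 and Col1a2 averaged 1186 and 1150 CPM in MaP R172H/- and 748.5 and 1041 CPM in MaP -/- tumors. Without JM779-T1 Pdgfra had -1.38 (FDR = 0.0469) and without YZ2 its call was lost (FDR = 0.0557), and that of Lum was lost without YZ2, YZ10 or JM833-T1. Against MaP R245W/- tumors the other markers called lower were Cd53 (-2.17 ± 0.39, FDR = 0.00178), Lum (-2.60 ± 0.74, FDR = 0.0344) and 4 of 5 tested skeletal muscle genes, Acta1, Myh4, Tnnt3 and Mylpf (-6.01 to -3.60). In MaP R245W/- tumors the summed muscle markers were high in JM1233 and JM1133 but at 3.48 CPM in RM0014 and 6.38 CPM in JM1564, within the 2.82 to 19.5 CPM of MaP R172H/- tumors. Without JM1233 the values were -3.68 for Acta1 (FDR = 0.0449), -3.35 for Tnnt3 (FDR = 0.0112), -2.04 for Mylpf (FDR = 0.0154) and -3.18 for Myh4 (FDR = 0.117), whose call was also lost without YZ2, YZ4, YZ6 or YZ10. Lum had -1.47 (FDR = 0.193) without JM1126 and was not called without YZ2, YZ3, YZ7, YZ10, YZ11 or JM1233, while Cd53 was called with any single tumor left out. No lymph node stroma or adipocyte marker was called.

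For lists with no call, the most abundant genes had the following log2 fold changes. Glycam1 and Cxcl13 of the lymph node stroma list had -2.79 ± 1.61 (SE) and 0.36 ± 1.35 for MaP R172H/- against MaP -/- tumors, -2.67 ± 1.93 and -0.48 ± 1.01 for MaP R245W/- against MaP -/- tumors, and -0.18 ± 1.70 and 0.80 ± 1.39 between the mutants. Plin4 and Adipoq of the adipocyte list had -3.64 ± 1.39 and -3.61 ± 1.77, then -5.07 ± 1.76 and -6.43 ± 2.15, then 1.38 ± 1.36 and 2.76 ± 1.86. Plin4 was at 1482 CPM and Adipoq at 423 CPM in JM833-T1, against at most 153.8 and 33.9 CPM in the other MaP -/- tumors. Without JM833-T1 Plin4 and Adipoq had -0.90 and -0.42 for MaP R172H/- against MaP -/- tumors, and -2.34 and -3.25 for MaP R245W/- against MaP -/- tumors. Acta1 and Myh4, skeletal muscle genes, had 1.46 ± 0.85 and 1.85 ± 0.96 for MaP R172H/- against MaP -/- tumors. In MaP R245W/- against MaP -/- tumors Lcp1 and Ptprc had 0.42 ± 0.25 and -0.47 ± 0.46, C1qa and Mrc1 0.45 ± 0.35 and -0.13 ± 0.85, and Cr2 and Ms4a1 -5.45 ± 1.84 and -5.37 ± 1.57. Without JM833-T2 Cr2 and Ms4a1 had -1.44 and -2.03 there. In the same comparison Cd4 and Cd8a had -0.81 ± 0.84 and -1.63 ± 0.82, Krt18 and Krt8 1.69 ± 0.64 and 1.70 ± 0.68, Col3a1 and Col1a2 0.67 ± 0.56 and 1.69 ± 0.59, Pecam1 and Cdh5 -0.22 ± 0.33 and 0.04 ± 0.31, and Acta1 and Myh4 7.44 ± 1.67 and 6.49 ± 1.66. Without JM1233 Acta1 and Myh4 had 5.12 and 4.99. Between the mutants Cr2 and Ms4a1 had 1.17 ± 1.31 and 0.77 ± 1.20, Cd4 and Cd8a 0.03 ± 0.67 and 0.62 ± 0.71, Krt18 and Krt8 -0.35 ± 0.71 and -0.46 ± 0.77, and Pecam1 and Cdh5 -0.58 ± 0.26 and -0.15 ± 0.28.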

How the data were processed

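Per the labels, total RNA of 18 mammary tumors of 16 mice was sequenced as stranded libraries. The authors depleted ribosomal RNA, used STAR 2.7.10b on GRCm39 and RSEM 1.3.3 with the GENCODE M34 genes, and deposited unnormalized whole-number counts. Reads of alleles that differ from the reference may be lost or moved between related MHC genes. Total counts per tumor were 23113578 to 37365062. Of 57126 genes, 56620 matched GENCODE M39 by identifier.

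Counts were tested with edgeR 4.0.16 (R 4.3.3): TMM, filterByExpr, quasi-likelihood test, Benjamini-Hochberg over all genes tested, FDR below 0.05. Each mutant was compared with MaP -/- in a fit of its own, and the mutants in a fit of 18 tumors. The SE of a log2 fold change is its size over the square root of F. The fit was tested on simulated data. Platform was no covariate, since it follows genotype. Tumors of 1 mouse are not independent.

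The members and lists were chosen with earlier results of these data known. All 10 members are named in each comparison. Of other lists, each called gene is named where at most 6 passed, otherwise 3 per direction, and where none passed the 2 most abundant. H2-Ea, Psmb8, Psmb9, Tap2, H2-DMa, H2-DMb1, Ifng, Irf1, Rfx5, Ptprc and Epcam were always read, and 2 further genes with 2 relations are not reported here. Remaining steps used scipy 1.17.1, numpy 2.4.6, matplotlib 3.10.9 and pandas 2.3.3 under Python 3.11.15. Promoters came from RefSeq (GRCm38.p6), with the last start listed for a gene. Alternatives were DESeq2 1.42.0 (size factors and Wald test), other filters, an added fold change threshold of 1, tumors of 1 mouse summed and other samples in the fit. Further alternatives were a leukocyte covariate, H2-K1 and H2-D1 summed with the other H2 class I heavy chain genes, and each tumor left out. Chosen after seeing the data were the fits without tumors low in H2-Ea or Epcam, and the ratios.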

Additional observations from a re-analysis of the deposited data

Results flagged for a closer look

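Single tumors that lay far from the rest of their group by Dixon's test were found in 9 of 63 sets of a gene or summed marker list and a group, on the log2 scale, where chance flags about 1 in 20. The sets share tumors, and genes within a class vary together, so the 9 flags are not independent and show no excess over that rate. All fell on YZ7, JM833-T2, JM1233 or JM779-T1. YZ7 was low among MaP R172H/- tumors in Cd74 (140 CPM, group median 591) and H2-Eb1 (35.3 CPM, group median 178). YZ7 was also low there in the summed pan-leukocyte (377 CPM, median 808.5), dendritic cell (29.0 CPM, median 116) and epithelial markers (365 CPM, median 4381). Without YZ7, the log2 fold changes of Cd74 and H2-Eb1 against MaP -/- tumors stayed above an FDR of 0.05.

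JM833-T2 was high among MaP -/- tumors in B cell markers (541 CPM, median 7.73) and pan-leukocyte markers (1974 CPM, median 1073). It held the highest Ciita level of the series, 109 CPM. Epithelial markers were low in JM1233 among MaP R245W/- tumors (476 CPM, median 4337) and in JM779-T1 among MaP -/- tumors (167 CPM, median 1878).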

How the results depend on the processing

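The groups hold 5 to 7 tumors, whose totals of 23113578 to 37365062 counts gave every member at least 177 counts in each tumor. No paired analysis was possible because the replicate numbers were given in accession order and pair no tumors. Members passing an FDR of 0.05 numbered 0 in every comparison and alternative, except 4 higher between the mutants without JM1133 (range over the tumors left out, 0 to 4). Of 696 values of single members under alternatives, 648 kept their sign and side of the threshold, 44 changed sign and 4 passed it. All values that changed sign had FDRs above 0.05, and the cause was not tested.

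For MaP R172H/- against MaP -/- tumors, Nlrc5, H2-Aa and Ciita were 0.10, 0.062 and 0.093 on the log2 scale with tumors of 1 mouse summed and 0.10, 0.58 and 1.06 with the leukocyte covariate. Nlrc5 was 0.081 without the tumors low in H2-Ea and 0.0084 without those low in Epcam. With each tumor left out, Nlrc5 was -0.19 to 0.15, H2-Aa -0.35 to 0.16 and Ciita -0.44 to 0.58. For MaP R245W/- against MaP -/- tumors, Ciita was 0.18 with tumors of 1 mouse summed. Without the tumors low in H2-Ea, H2-K1 was 0.21, H2-D1 0.22, B2m 0.28, Tap1 0.23, Cd74 -0.00301, H2-Aa -0.27 and H2-Eb1 -0.074. With each tumor left out, H2-D1 was -0.64 to 0.0016, H2-Aa -0.17 to 0.76 and Ciita -0.56 to 0.68. Between the mutants, H2-Aa, H2-Eb1 and Ciita were 0.28, 0.53 and 0.90 with the leukocyte covariate and 0.00658, 0.22 and 0.43 without the tumors low in H2-Ea, and Ciita was 0.13 without those low in Epcam. With each tumor left out, Cd74 was -0.14 to 0.44, H2-Aa -0.87 to 0.0087, H2-Ab1 -0.10 to 0.77, H2-Eb1 -0.57 to 0.19 and Ciita -0.37 to 0.35.

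Counts over all genes moved more. For MaP R172H/- against MaP -/- tumors, 768 were higher and 992 lower. Higher genes numbered 354 with the fold change threshold, 449 with no filter and 380 with tumors of 1 mouse summed. DESeq2 gave 1447 higher and 1978 lower, the leukocyte covariate 100 and 186, and leaving out the tumors low in H2-Ea 36 and 129. Leaving out single tumors gave 441 to 827 higher and 626 to 1039 lower. For MaP R245W/- against MaP -/- tumors the counts were 0 and 0, DESeq2 gave 170 higher and 257 lower, the fit of all tumors 1 and 1, and leaving out the tumors low in Epcam 1 lower. Leaving out single tumors gave 0 to 1 higher and 0 to 3 lower. Between the mutants, 654 were higher and 1460 lower. Higher genes numbered 321 with no filter, 1502 with DESeq2 and 369 to 804 with single tumors left out. Lower genes numbered 926 with the fold change threshold and 875 with at least 10 counts in every tumor. Without the tumors low in H2-Ea the counts were 96 and 512.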
